A study of Mus musculus with 6 samples.

Results

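A set of 10 genes of the smooth muscle contractile apparatus, which the myoepithelial cells of the mammary gland express, was followed across 6 arrays of mammary gland RNA. The set holds the actins Acta2 and Actg2, the myosin heavy chain Myh11, the kinase Mylk, the thin filament proteins Cnn1, Tagln, Lmod1 and Smtn, the calcium regulator Mrvi1 and the oxytocin receptor Oxtr. The genes were chosen by name, and every non-control probe whose RefSeq accession belonged to one of them was taken: 12 probes of 39318 used, 8 genes with 1 probe each and 2 genes (Mrvi1 and Smtn) with 2. All 10 genes passed the filter on dim signals, and they are 10 of the 23462 genes or unnamed transcripts tested. The diet differences of these arrays were known when the genes were chosen, so their differences are a description of these samples and no independent evidence of a direction.

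Myoepithelial cells form the basal layer of mammary ducts and alveoli and squeeze milk towards the nipple. Oxytocin binds its receptor on these cells and raises calcium, calmodulin with calcium activates myosin light chain kinase, and the phosphorylated smooth muscle myosin pulls on smooth muscle actin filaments. Calponin, transgelin, leiomodin and smoothelin bind or build those filaments. The same genes are active in the smooth muscle of vessel walls and, in part, in pericytes and activated fibroblasts.

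All samples came from female mice lacking Trp53 (Trp53-/-, genotype Trp-53 knockout), aged 8 weeks, with no wild-type animals among the samples analysed here. In the HFD group 3 samples came from mice given a high-fat diet, and in the CD group 3 came from mice given a control diet, in both cases from 3 weeks of age and for 5 weeks. Mice were assigned to a diet at random and the samples of a group are described as biological replicates. The knockout is not described as restricted to any cell type, and the labels name both whole glands and epithelial cells as the material.

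Each sample was hybridised to 1 single-colour array, on which 27202 to 29409 probes lay well above background and 0 were saturated. A level below is the log2 of a probe's signal relative to the 75th percentile of its array, which ranged from 1326 to 1973 intensity units. Levels of different genes are not comparable, since each probe has its own brightness. Differences are high-fat minus control diet, with n = 3 per diet. The number of arrays limits the precision. In bulk RNA, fewer cells of a type and less RNA per cell cannot be told apart. The arrays did not part by diet on the first principal component (46.7% of the variance), where HFD replicate 3 scored 7.35 and CD replicate 1 scored 0.57, between -56.0 and -50.1 for the other HFD arrays and 48.8 and 49.4 for the other CD arrays. One slide of 3 held both diets (HFD replicates 2 and 3, CD replicate 1), so slide and diet could be separated within that slide alone.

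All 10 contractile genes had a higher mean level on HFD than on CD arrays, and 0 passed the test. The differences had a median of 1.01 on the log2 scale, where the median over all genes tested was -0.01 and 49% of genes were positive. In 7 of the 10 every HFD array lay above every CD array, as it did in 8.46% of all genes tested, and in 3 (Mylk, Smtn and Oxtr) the diets overlapped. The difference was 1 or more in 5 genes, as in 1.56% of all genes tested. In limma's fit over all genes 0 of the 10 passed an adjusted p of 0.05, as 0.017% of all genes did, and 7 were higher on HFD arrays at an unadjusted p below 0.05 (5.88% of all genes). Adjusted p ranged from 0.0914 for Mrvi1 to 0.844 for Smtn. Since the choice of genes used this comparison, nothing is read from these shares.

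**Figure D1:**
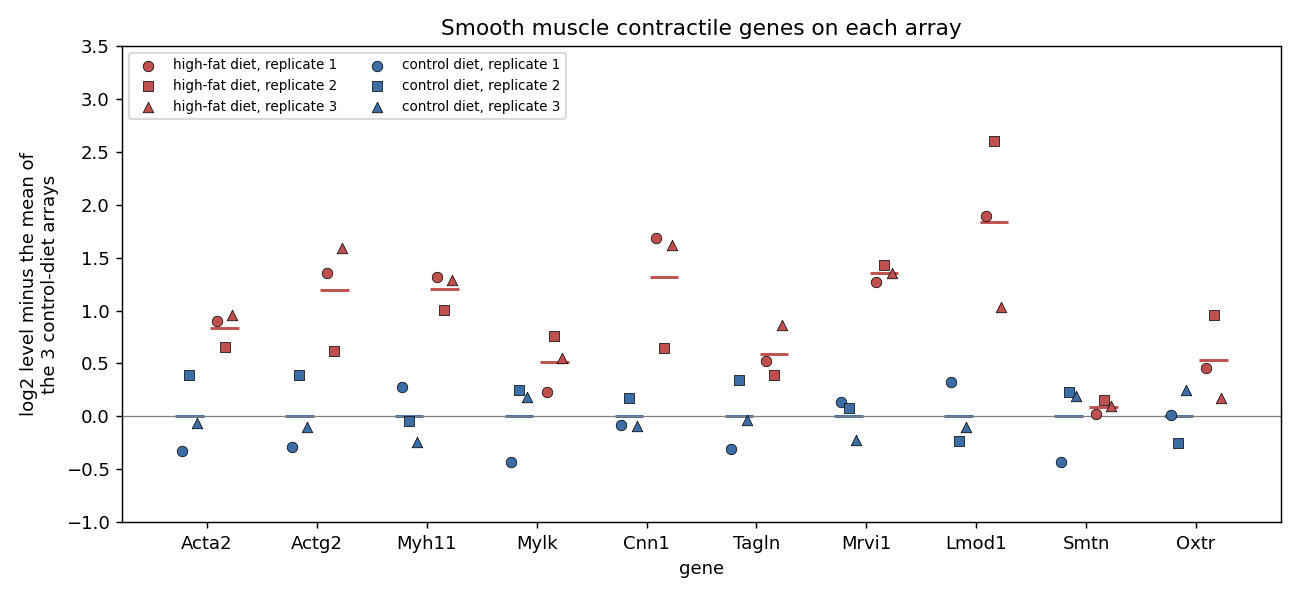
Level of each contractile gene on each of the 6 arrays, as log2 level minus the mean of the 3 CD arrays (vertical axis) for each gene (horizontal axis); points are arrays, short lines are group means (n = 3). The HFD points lie above all CD points for 7 genes and mingle with them for Mylk, Smtn and Oxtr.

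Acta2 (NM_007392) encodes smooth muscle alpha-actin, the classical myoepithelial marker and the main actin of the contractile filaments. Its levels were 6.57, 6.33 and 6.63 on HFD replicates 1 to 3 and 5.34, 6.07 and 5.61 on CD replicates 1 to 3. The groups did not overlap, and CD replicate 2 came closest to the HFD arrays. The HFD mean was 6.51 ± 0.16 and the CD mean 5.67 ± 0.37 (SD, n = 3 each), a difference of 0.83 (SE 0.21) or 1.78-fold, with an adjusted p of 0.261 in limma. Acta2 was the one gene here with repeated spots, and its 10 spots per array had an SD between 0.056 and 0.080, smaller than the spread between samples of either diet.

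Actg2 (NM_009610), the smooth muscle gamma-actin, followed the same order of arrays. Levels were 3.16, 2.43 and 3.40 on HFD replicates 1 to 3 against 1.52, 2.20 and 1.70 on CD replicates 1 to 3. HFD replicate 2 was the lowest of its group and CD replicate 2 the highest of its own, and only 0.23 separated them. The difference was 1.19 (SE 0.30), or 2.28-fold, from 1.81 ± 0.35 to 3.00 ± 0.51 (SD, n = 3 each), with an adjusted p of 0.261 in limma. Muscle actins are close paralogs, the probe sequences were not used here, and how far a probe reads more than one of them is not known. The skeletal muscle actin Acta1 differed by 0.01 (SE 0.24).

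Myh11 (NM_001161775) encodes the smooth muscle myosin heavy chain, the motor that pulls on these actins. Levels were -0.85, -1.17 and -0.88 on HFD replicates 1 to 3 and -1.89, -2.21 and -2.41 on CD replicates 1 to 3. The groups lay 0.72 apart, more than the range within either diet (0.32 and 0.52). From -2.17 ± 0.26 to -0.97 ± 0.18 (SD, n = 3 each), Myh11 differed by 1.21 (SE 0.18), or 2.31-fold, with an adjusted p of 0.124 in limma.

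Mylk (NM_139300), the myosin light chain kinase that switches this motor on, differed less. Its levels were -3.74, -3.20 and -3.41 on HFD replicates 1 to 3 and -4.40, -3.72 and -3.78 on CD replicates 1 to 3. HFD replicate 1 fell within the CD range, and CD replicate 1 was lower than all other arrays. The difference was 0.51 (SE 0.24), or 1.43-fold, with an adjusted p of 0.391 in limma. It was 0.30 without CD replicate 1, 0.32 with a normexp background and quantile scaling, 0.83 under normexp correction scaled to the 75th percentile (0.57 above the median of all genes) and 1.09 within the shared slide, whose control is that same array.

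Cnn1 (NM_009922) encodes calponin 1, which binds actin filaments and restrains the myosin motor. Levels were 4.20, 3.16 and 4.13 on HFD replicates 1 to 3 and 2.43, 2.69 and 2.42 on CD replicates 1 to 3. The CD arrays lay close together, and HFD replicate 2 stood between them and the other HFD arrays. Cnn1 differed by 1.32 (SE 0.29), or 2.49-fold, from 2.51 ± 0.15 to 3.83 ± 0.58 (SD, n = 3 each), with an adjusted p of 0.231 in limma.

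Tagln (NM_011526), or transgelin, cross-links actin filaments and is an early marker of the smooth muscle programme. Levels were 6.14, 6.02 and 6.49 on HFD replicates 1 to 3 and 5.31, 5.97 and 5.59 on CD replicates 1 to 3. The groups were apart by 0.05, the gap between HFD replicate 2 and CD replicate 2. The difference was 0.59 (SE 0.21), or 1.51-fold, with an adjusted p of 0.350 in limma, and it was 0.94 within the shared slide.

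Lmod1 (NM_053106), leiomodin 1, starts new actin filaments in smooth muscle, and it showed the widest difference of the 10. Levels were -5.62, -4.91 and -6.48 on HFD replicates 1 to 3 and -7.18, -7.74 and -7.61 on CD replicates 1 to 3. Its probe was dim: it lay well above background on 3 of 3 HFD arrays and on 1 of 3 CD arrays. HFD replicate 2 was the highest and HFD replicate 3 the lowest of its group, 1.57 apart. The difference of 1.84 (SE 0.40), with an adjusted p of 0.227 in limma, was 1.17 under normexp correction scaled to the 75th percentile, and 0.34 with a normexp background and quantile scaling, so its size rests on the treatment of dim signals.

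Smtn, or smoothelin, a cytoskeletal protein of contractile smooth muscle, was measured by 2 probes and stood apart from the rest. On the brighter probe (NM_001159284) levels were 3.48, 3.61 and 3.55 on HFD replicates 1 to 3 and 3.03, 3.69 and 3.65 on CD replicates 1 to 3. CD replicates 2 and 3 lay above every HFD array, and CD replicate 1 below. That probe differed by 0.09 (SE 0.20), or 1.06-fold, with an adjusted p of 0.844 in limma, by -0.12 without CD replicate 1 and by 0.55 within the shared slide. On the other probe (NM_013870) levels were 1.32, 1.49 and 1.34 on HFD replicates 1 to 3 and 0.81, 1.23 and 1.20 on CD replicates 1 to 3, a difference of 0.30 (SE 0.16, adjusted p = 0.411 in limma over all probes) with the diets apart.

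Mrvi1 (NM_194464) encodes the substrate through which cyclic GMP-dependent kinase curbs calcium release from the stores of smooth muscle. Levels were -1.80, -1.63 and -1.71 on HFD replicates 1 to 3 and -2.93, -2.98 and -3.28 on CD replicates 1 to 3. The arrays of each diet lay close together, and the gap of 1.13 between the diets was the widest among the 10 genes. From -3.06 ± 0.19 to -1.71 ± 0.08 (SD, n = 3 each), Mrvi1 differed by 1.35 (SE 0.14), or 2.55-fold, with the lowest adjusted p of the 10 (0.0914 in limma).

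The second Mrvi1 probe, of the same accession, did not follow the first. Its levels of -8.39, -8.48 and -8.47 on HFD replicates 1 to 3 were not well above background, while CD replicates 1 to 3 read -8.13, -4.05 and -7.14, of which 2 were well above background. It failed the filter. With HFD levels raised to the lowest well-above-background level of their array, the CD mean was 1.71-fold higher. That value rests on CD replicate 2, without which the CD mean was not higher. Which transcripts each probe reads is not known.

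Oxtr (NM_001081147), the oxytocin receptor that starts milk ejection, had levels of -3.15, -2.65 and -3.43 on HFD replicates 1 to 3 and -3.59, -3.86 and -3.36 on CD replicates 1 to 3. HFD replicate 3 fell below CD replicate 3, so the diets overlapped. The difference was 0.53 (SE 0.24), or 1.44-fold, with an adjusted p of 0.387 in limma, and it was 0.32 without HFD replicate 2, the highest array, and 0.85 under normexp correction scaled to the 75th percentile (0.58 above the median of all genes).

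**Figure D2:**
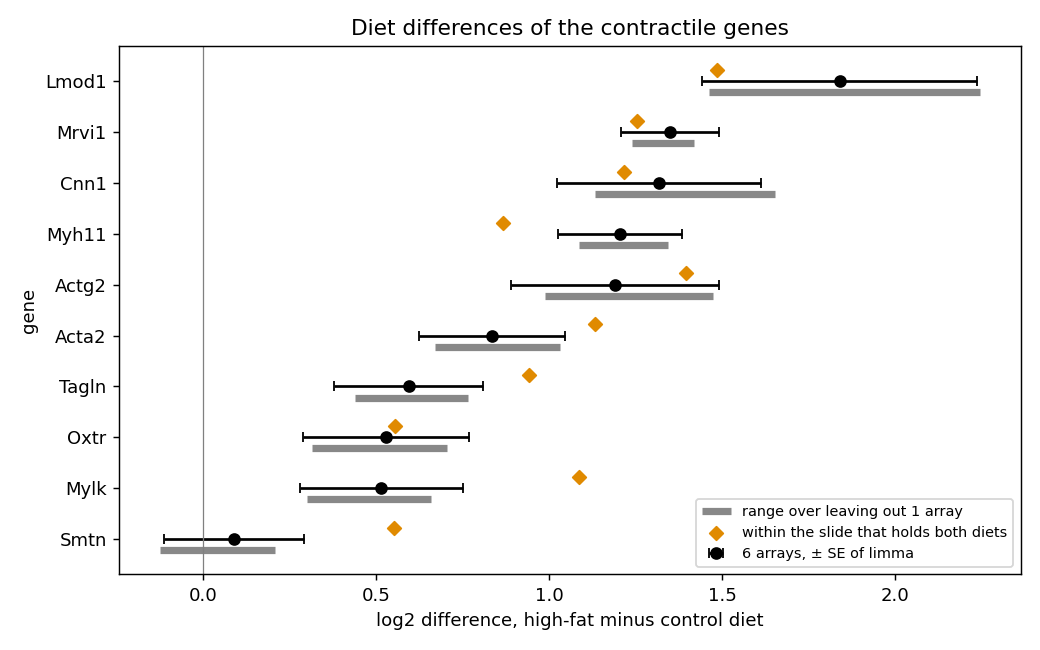
Log2 difference between diets, high-fat minus control (horizontal axis), for each contractile gene (vertical axis): black points with bars are the estimate from 6 arrays with its SE in limma, grey bars span the estimates with 1 array left out, and diamonds are the estimate within the slide that holds both diets. Smtn is the only gene whose grey bar crosses 0, and Lmod1 has the widest.

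Averaged over the 10 genes, the level was 0.84, 0.80 and 0.83 on HFD replicates 1 to 3 and -0.24, 0.01 and -0.15 on CD replicates 1 to 3. In this average HFD replicate 3 and CD replicate 1, which lay between the diets on the first principal component, sat with their own diet. The genes were chosen with the diet difference known, so the choice favoured that placement. HFD replicate 3 still fell within the CD range for Oxtr and for Smtn on its brighter probe. The close HFD averages hid opposite orders: Actg2, Cnn1, Acta2, Tagln and Myh11 were lowest on HFD replicate 2 among the HFD arrays, and Lmod1, Oxtr, Mylk, Mrvi1 and Smtn were highest there. Among the control arrays CD replicate 1 was the lowest in 5 genes, CD replicate 2 in 2 and CD replicate 3 in 3. Over the 6 arrays, which all pairs share, the Pearson correlation between pairs of the 10 genes had a median of 0.66 over 45 pairs. It was highest for Actg2 with Cnn1 (0.97), Myh11 with Mrvi1 (0.97) and Acta2 with Tagln (0.97), and lowest for Myh11 with Smtn (-0.04). Of the 10, Mrvi1 was the most like the mean of the other 9 (r = 0.96) and Smtn the least (r = 0.27). These correlations include the diet difference, which was known when the genes were chosen, so they do not measure co-variation within a diet.

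Within the slide that held both diets, both HFD arrays exceeded the CD array in 10 of 10 contractile genes, as they did in 34.5% of all genes tested. The median difference there was 1.11, against 0.03 for all genes tested, with values from 0.55 for Smtn to 1.49 for Lmod1. That comparison has 1 control array, so the spread among controls does not enter it.

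Smooth muscle promoters are known for the CArG box, read by serum response factor, and for the MCAT element, read by TEAD factors, so both were searched for in the RefSeq promoter windows of the 10 genes (GRCm38.p6, 250 bases before to 50 after the start, both strands). In all 8 windows were matched, for 7 of the 10 genes (Acta2, Mylk, Cnn1, Mrvi1, Lmod1, Smtn and Oxtr). Actg2, Myh11 and Tagln were not matched. An exact CArG box was found in 0 of the 7, and 1.63% of all 32851 windows of that length held one. With 1 letter off allowed it was found in 3 genes (Acta2, Mrvi1, there in another window than the MCAT element, and Lmod1). That is 3 of the 8 windows, against 21.1% of all windows. The MCAT element, CATTCC or GGAATG on the other strand, was found in 5 of the 7 genes (Acta2, Mylk, Mrvi1, Lmod1 and Smtn). That is 5 of the 8 windows, against 14.7% of all windows. The stretches that hold an MCAT element are shown 5′ to 3′ on the strand of the gene, with MCAT elements and CArG boxes of at most 1 letter off in capitals; the motifs do not overlap.
Acta2, chr19:34255444-34255543, minus strand: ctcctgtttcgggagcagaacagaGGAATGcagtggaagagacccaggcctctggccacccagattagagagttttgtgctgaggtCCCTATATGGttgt
Mylk, chr16:34784765-34784824, plus strand: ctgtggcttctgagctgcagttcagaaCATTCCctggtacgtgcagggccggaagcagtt
Mrvi1, chr7:110982545-110982604, minus strand: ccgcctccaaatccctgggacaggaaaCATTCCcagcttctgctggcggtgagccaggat
Lmod1, chr1:135324618-135324717, plus strand: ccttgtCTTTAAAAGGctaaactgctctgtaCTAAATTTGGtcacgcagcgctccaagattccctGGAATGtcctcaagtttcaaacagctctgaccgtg
Smtn, chr11:3539482-3539541, minus strand: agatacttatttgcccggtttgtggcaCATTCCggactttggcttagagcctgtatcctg
In Acta2 the MCAT element lay 146 and the CArG-like box shown 84 bases before the start, with another CArG-like box 34 bases before it that is outside the stretch, and in Lmod1 the MCAT element lay 130 bases before it. Smtn, whose level hardly differed between diets on its brighter probe, also held an MCAT element, 222 bases before its start. A match is a run of letters and does not show that a factor binds there.

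Other genes of the contractile and cytoskeletal machinery were taken from a list of 45, of which 43 were measured. None passed an adjusted p of 0.05 in limma in either direction (11 higher and 4 lower at an unadjusted p under 0.05, as for 5.88% and 7.46% of all genes tested), and the median difference was 0.18. In 14 the HFD arrays all lay above the CD arrays (8.46% of all genes tested), and in 2 all below (8.75% of all genes tested). Myl9, the regulatory light chain that Mylk phosphorylates, had levels of 4.99, 4.71 and 5.07 on HFD replicates 1 to 3 and 3.80, 4.06 and 3.77 on CD replicates 1 to 3, apart by more than the range within a diet. It differed by 1.05 (SE 0.15), and Tpm2, the beta-tropomyosin that lies along the actin filament, by 0.95 (SE 0.15), with adjusted p of 0.124 and 0.132 in limma.

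Smaller positive differences were found for Cnn2, a calponin outside muscle (0.49, SE 0.11), and Nexn, an actin-binding protein of muscle (0.53, SE 0.14). The integrin Itgb1 differed by 0.54 (SE 0.15) and vinculin, Vcl, by 0.53 (SE 0.15). Fhl1, a LIM protein of muscle, differed by 1.74 (SE 0.45) on a probe well above background on 2 of 3 CD arrays. The genes with diets apart the other way were Cavin1, a coat protein of caveolae (-0.46, SE 0.15), and Des, the muscle intermediate filament desmin (-0.91, SE 0.33). Itga8 and Pgm5 differed by -0.89 (SE 0.36) and -0.79 (SE 0.29) with the diets overlapping. These are the 4 genes lower at an unadjusted p under 0.05, named after their values were seen. Myl6, the essential light chain found in most cells, differed by -0.01 (SE 0.14). Scaling normexp-corrected signals to the 75th percentile moved the median of all genes to 0.27. There the list's median lay -0.13 from that of all genes, while the median of the 10 contractile genes lay 0.67 above it.

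**Figure D3:**
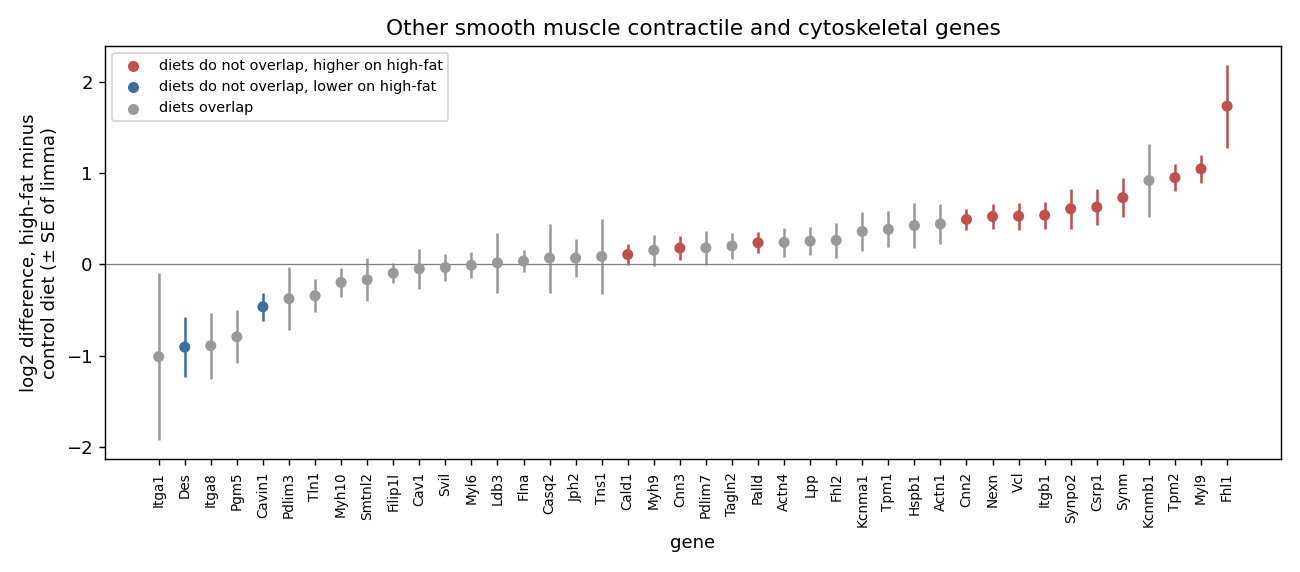
Log2 difference between diets with its SE in limma (vertical axis) for 42 of the 43 measured genes of the list of other smooth muscle contractile and cytoskeletal genes (horizontal axis, in order of difference); colour shows whether the ranges of the diets overlapped. Fhl1, Myl9 and Tpm2 stand at the upper end, and Des and Cavin1 are the 2 genes apart in the other direction.

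Genes that set the state of the light chain showed no common shift. Of the 16 myosin phosphatase and RhoA pathway genes, 0 passed in limma (3 higher and 0 lower at an unadjusted p under 0.05, as for 5.88% and 7.46% of all genes), and the median was 0.02. The kinase Rock1, which inhibits the myosin phosphatase, differed by 0.83 (SE 0.26) with the diets apart, and Rock2 by 0.19 (SE 0.10). Ppp1r14a, the phosphatase inhibitor of smooth muscle, differed by 0.90 (SE 0.35) with the diets overlapping, and Calm2, a calmodulin gene, by 0.34 (SE 0.13). Arhgef1, an activator of RhoA, differed by -0.39 (SE 0.20). Adjusted p for these ranged from 0.320 for Rock1 to 0.451 for Rock2.

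Of 20 measured genes of oxytocin and calcium signalling, 0 passed in limma, with a median of -0.09. At an unadjusted p under 0.05, 0 were higher and 1 lower, against 5.88% and 7.46% of all genes. Avpr1a, the vasopressin receptor closest to Oxtr, read -5.44, -5.59 and -5.42 on HFD replicates 1 to 3 and -3.92, -4.84 and -4.20 on CD replicates 1 to 3. It was lower on every HFD array than on any CD array, by 1.16 on average (log2 difference -1.16, SE 0.24, adjusted p = 0.221 in limma), the opposite sign to Oxtr. Oxt, the gene of the hormone itself, differed by -0.33 (SE 0.52), and Itpr1, the calcium release channel with which the Mrvi1 protein associates, by -0.24 (SE 0.14). Plcb4, a phospholipase of receptor signalling, and the channel Trpc6 differed by 0.47 (SE 0.21) and 1.09 (SE 0.58).

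A further list joined genes of cyclic GMP relaxation, the branch in which Mrvi1 acts, with endothelin genes, which are not part of that branch. Of its 9 measured genes 0 passed in limma. At an unadjusted p under 0.05, 0 were higher and 1 lower, against 5.88% and 7.46% of all genes. Prkg1, the kinase that phosphorylates the Mrvi1 protein, read -3.89, -3.44 and -2.55 on HFD replicates 1 to 3 and -3.94, -3.50 and -3.87 on CD replicates 1 to 3. It was high on HFD replicate 3 alone, with a difference of 0.47 (SE 0.35). The natriuretic peptide receptor Npr2 differed by -0.43 (SE 0.16), and the endothelin genes Edn1, Ednrb and Ednra by 1.11 (SE 0.58), 1.02 (SE 0.58) and -0.93 (SE 0.64).

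Transcription regulators of the smooth muscle programme showed no common direction. Of 12 measured, 0 passed in limma, with a median of -0.10, which was 0.13 within the shared slide. At an unadjusted p under 0.05, 1 was higher and 0 lower, against 5.88% and 7.46% of all genes. Srf, the serum response factor, differed by 0.37 (SE 0.16) with the diets apart, while its coactivators Mrtfa and Mrtfb differed by 0.28 (SE 0.17) and -0.09 (SE 0.15). Myocd, the smooth muscle coactivator of Srf, was well above background on 1 of 6 arrays and failed the filter. Hey2, a Notch target of vascular smooth muscle, was not well above background on any CD array. It passed the filter through the HFD arrays alone, so nothing is read from its direction. Its mean levels were -6.82 on HFD and -8.65 on CD arrays (adjusted p = 0.240 in limma). With CD levels raised to the lowest well-above-background level of their array, the means lay 1.67-fold apart. Tead3 and Gata6 differed by -0.57 (SE 0.30) and -0.51 (SE 0.27).

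Of 20 basal epithelial markers without a contractile role, all measured, 19 had positive and 1 negative differences and 0 passed in limma. At an unadjusted p under 0.05, 10 were higher and 0 lower, as for 5.88% and 7.46% of all genes. In 11 the HFD arrays all lay above the CD arrays, as in 8.46% of all genes, and in 9 the diets overlapped. The median was 0.75. The keratins of the basal layer differed by 1.27 (Krt5, SE 0.16), 1.36 (Krt17, SE 0.27) and 1.23 (Krt14, SE 0.33), the tetraspanin Tspan2 by 1.30 (SE 0.18) and the hemidesmosome integrin Itgb4 by 0.96 (SE 0.18). Trp63, the transcription factor that marks basal cells, differed by 0.17 (SE 0.11), with levels of 0.79, 0.80 and 0.79 on HFD replicates 1 to 3 and 0.53, 0.73 and 0.62 on CD replicates 1 to 3. The list's mean level was 1.29 ± 0.14 on HFD and 0.54 ± 0.17 on CD arrays (SD, n = 3 each). Its summed signal was 208 to 250 times the 75th percentile on HFD arrays and 107 to 149 on CD arrays.

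Set against these markers array by array, the mean of the 10 contractile genes minus the mean of the basal markers was -0.41, -0.36 and -0.61 on HFD replicates 1 to 3 and -0.77, -0.70 and -0.52 on CD replicates 1 to 3. HFD replicate 3 fell below CD replicate 3, so the diets overlapped. The difference was 0.20, from -0.67 ± 0.13 to -0.46 ± 0.13 (SD, n = 3 each), against 0.95 for the contractile mean alone. It was 0.059 with a normexp background and quantile scaling. With probes well above background on all 6 arrays, which drops the dim Lmod1 and the basal marker Krt15, it was 0.098.

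Vascular smooth muscle cells and pericytes share most of the 10 genes, so their other markers were read beside them. Of 19 measured, 10 had positive and 9 negative differences and 0 passed in limma. At an unadjusted p under 0.05, 1 was higher and 1 lower, against 5.88% and 7.46% of all genes. The median was 0.20. The difference of the list's mean was -0.17, of opposite sign. The median was -0.04 without HFD replicate 2 and -0.09 without HFD replicate 3. The summed signal was 29.8, 35.1 and 54.9 times the 75th percentile on HFD replicates 1 to 3 and 28.4, 54.0 and 44.5 on CD replicates 1 to 3, with the diets overlapping. Pdgfrb, the platelet-derived growth factor receptor of pericytes, differed by -0.48 (SE 0.37), Notch3, a receptor of vascular smooth muscle, by -0.55 (SE 1.13), and Rgs5, a pericyte marker, by 0.20 (SE 0.65). Mcam, an adhesion molecule of vessel walls, differed by 0.42 (SE 0.11) with the diets apart. Steap4, Art3 and Ndufa4l2 differed by -1.83 (SE 0.75), -1.14 (SE 0.55) and -2.22 (SE 1.39) with the diets overlapping. Among the 10 positive genes, Kcnj8, Abcc9 and Heyl differed by 1.08 (SE 1.07), 0.68 (SE 0.59) and 0.66 (SE 0.71), also with the diets overlapping. Kcnj8 lay well above background on 2 arrays of each diet. Ntf3 lay well above background on 0 of 6 arrays. None of the defining markers was absent: Pdgfrb, Notch3 and Rgs5 lay well above background on 6 of 6 arrays. CD replicate 1 had a lower list mean (-2.61) than the other CD arrays (-1.65 and -1.86), and within the shared slide, whose control it is, the vascular list's median difference was 1.07, beside 1.11 for the contractile genes. There the endothelial median was 1.69, that of the cyclic GMP and endothelin list 0.94 and the basal median 0.80. The fibroblast and luminal medians were -0.14 and 0.16. The part of vascular and endothelial cells in that within-slide difference was not tested.

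Markers of other cell types also differed between arrays. Fibroblast markers had a median difference of -0.89 (14 genes, 10 with negative and 4 with positive differences). In 4 the HFD arrays all lay below the CD arrays, as in 8.75% of all genes. The fibroblast median was -1.46 with array weights and -0.14 within the shared slide. The furthest from 0 were Lum (-1.80, SE 0.33), Pdgfra (-1.66, SE 0.37) and Dcn (-1.62, SE 0.33), and the highest difference was 0.15. The list had means of 1.87, 2.01 and 3.03 on HFD replicates 1 to 3 and 2.71, 3.22 and 3.40 on CD replicates 1 to 3. Luminal epithelial markers had a median of 0.70 (16 genes, 15 with positive and 1 with negative differences). At an unadjusted p under 0.05, 4 were higher and 0 lower, against 5.88% and 7.46% of all genes. In 2 the HFD arrays all lay above the CD arrays, against 8.46% of all genes. The luminal list had means of 1.33, 1.59 and 0.38 on HFD replicates 1 to 3 and 0.90, 0.02 and 0.21 on CD replicates 1 to 3. Thus HFD replicate 3 lay within the CD range for both lists. It lay above that range in the mean of the contractile genes, which were chosen with the diet difference known. Skeletal muscle markers, whose own contractile genes are distinct, had a median of -0.996 over 12 genes, the opposite sign to the smooth muscle genes. That median was 0.074 under normexp correction scaled to the 75th percentile, -0.19 relative to the median of all genes there. In 8 of the 12 the HFD arrays all lay below the CD arrays, as in 8.75% of all genes. The endothelial list had a median of 0.38 (10 genes), -0.13 without HFD replicate 2 and -0.17 without CD replicate 1.

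Keratinocyte markers, genes of the skin epidermis, kept the diets apart in their list mean, as the contractile genes did, with -1.25, -1.39 and -1.08 on HFD replicates 1 to 3 and -1.54, -1.91 and -2.09 on CD replicates 1 to 3. Their summed signal was 4.95 to 6.78 times the 75th percentile on HFD arrays and 2.71 to 4.96 on CD arrays, so the sums overlapped. Of the 7 measured, Krtdap (2.21, SE 0.31), Krt6a (1.72, SE 0.34) and Dmkn (1.46, SE 0.27) had the diets apart and higher on HFD arrays, as did 8.46% of all genes. The rest had the diets overlapping: Sbsn differed by 0.07 (SE 0.50), Lor by -0.63 (SE 0.43), Ivl by -0.56 (SE 0.74) and Krt10 by -0.055 (SE 0.14). The difference of the list mean was 0.60 and the median 0.07, and the median was 0.76 with probes well above background on all 6 arrays, 0.70 in the deposited table and 0.63 with array weights. It was 0.43 without HFD replicate 3 and 0.52 without CD replicate 1.

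Adipocyte markers had a median of 0.18 (10 genes), which was 0.68 within the shared slide. Under normexp correction scaled to the 75th percentile it was 0.77, or 0.50 above the median of all genes. Of these, 3 were apart and higher on HFD arrays (8.46% of all genes), among them Cfd (1.78, SE 0.27) and Adipoq (1.04, SE 0.22). Another 2 were apart and lower (8.75% of all genes), among them Pparg (-1.09, SE 0.25). Adipoq lay well above background on 5 of 6 arrays. Of the genes of these cell types 0 passed in limma, and their part in the level of the contractile genes was not tested.

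**Figure D4:**
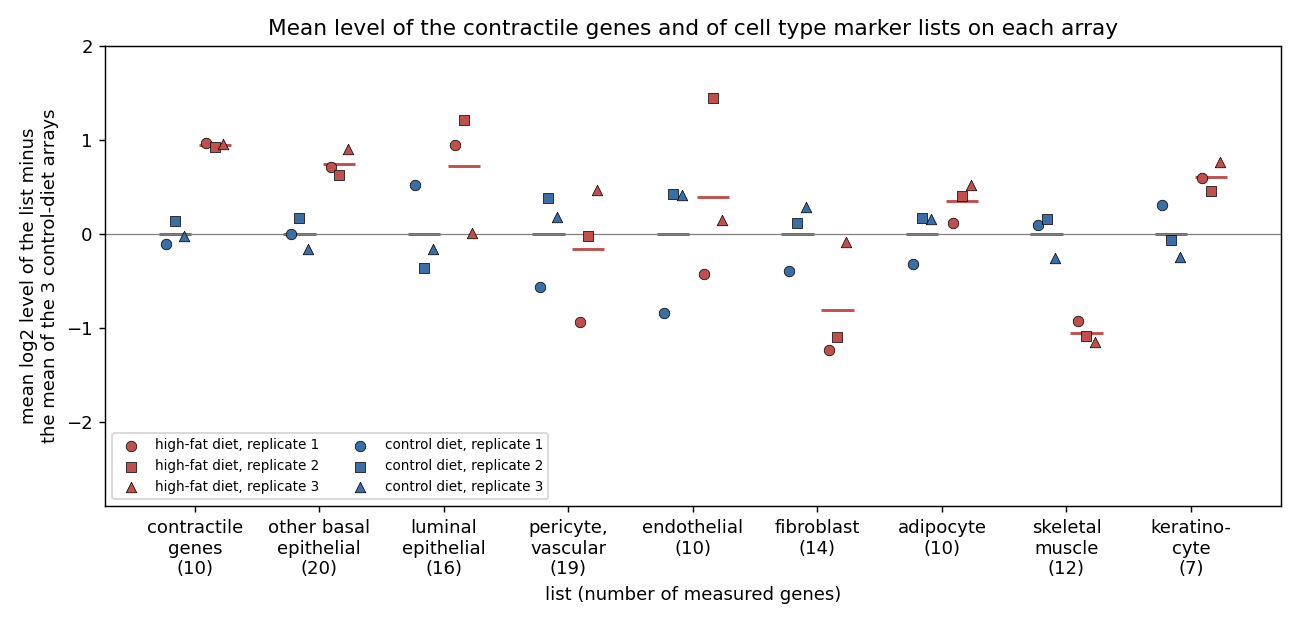
Mean log2 level of the 10 contractile genes and of 8 cell type marker lists on each array, minus the mean of the 3 CD arrays (vertical axis), with the number of measured genes under each list (horizontal axis); short lines are group means (n = 3). The contractile, other basal and keratinocyte lists keep the diets apart with HFD higher, the skeletal muscle list keeps them apart with HFD lower, the fibroblast and luminal lists place HFD replicate 3 among the CD arrays, and the vascular list mixes the diets.

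Among 16379 named genes outside the 10, those most like the mean of the contractile genes over the 6 arrays included Sdc1 (r = 0.995), a heparan sulfate proteoglycan of epithelia, Stx12 (0.990), Il1rn (0.989), Krt5 (0.988), Optc (0.987), Cnn2 (0.986) and Scn4b (0.986). In all, 64 genes exceeded 0.95, Myl9 (0.981) among them, while Krt14 (0.898), Trp63 (0.902), Srf (0.769), Rgs5 (0.138), Notch3 (-0.099) and Pdgfrb (-0.401) lay below it. For Oxtr alone the most similar were Pck1, Synj1, Hyou1, Fbxl18, Fgl1, Nudt5, Gm8439 and Uqcrc1 (r from 0.976 to 0.987), none of which is among the genes named for the mean. All these values rest on the same 6 arrays and include the diet difference, so a gene that differs between diets can rank high through that alone.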

How the data were processed

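Each of the 6 samples was measured on 1 single-colour (Cy3) Agilent array. The deposited scanner files hold linear intensity values, background-subtracted and detrended by Agilent Feature Extraction 11.0.1.1, per the file headers; the deposited table holds the authors' intensity values of 30608 probes in a constant ratio to them (within 1%), so it is linear, not centred per gene and divided by about the 75th percentile of the array (column medians 0.134 to 0.140). Control spots and outlier spots were left out, spots of a probe averaged, and 111 of 39429 probes dropped. Log2 signals were scaled to the 75th percentile. A probe was kept if 3 or more arrays read it well above background (28687 probes), and the probe with the highest mean used per gene. RefSeq accessions named 27427 probes (GRCm38.p6 table; arrays annotated on mm9, so array probes have no coordinates here).

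The diet contrast was fitted in R 4.3.3 by limma 3.58.1, using lmFit and eBayes without covariates. Two-sided p-values were adjusted by Benjamini-Hochberg over 23462 genes. The script was tested on simulated data. The genes, lists and tests were chosen with earlier results of these data known. No p is given for a mean or a ratio over the chosen genes, and no set test was run. Named genes were the 10 members, in each list the 4 with the smallest p (8 for other contractile genes), fixed defining markers, and the 8 with the highest correlation; a selection of these is printed, and some are not reported here. Rock2, Myl6, Ntf3, Kcnj8, Abcc9, Heyl, Sbsn, Ivl and Krt10 were named after their values were seen. Alternatives covered scaling, background, filter, floor, probe rule, the deposited table, variance, array weights, blocks and leaving out each array.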

Additional observations from a re-analysis of the deposited data

How the results depend on the processing

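The count of genes past an adjusted p of 0.05 in limma (4, all lower; 3129 at an unadjusted p under 0.05) was 0 with quantile scaling, under normexp correction scaled to the 75th percentile, with no filter, with the replicate number as a block and with slide as a block (1099 to 4042 at an unadjusted p under 0.05). It was 2 with median scaling, 7 with a normexp background and quantile scaling, 7 with probes well above background on all 6 arrays, 18 at an adjusted p under 0.1 and 5410 with array weights. Leaving out 1 array gave 37 without HFD replicate 3 and 0 without any other. The median of the contractile genes (1.01) was 0.72 with a normexp background and quantile scaling, 0.83 with probes well above background on all 6 arrays, which drops Lmod1, 0.83 with every probe its own feature, 0.91 with array weights and 1.11 with the slide block, and 0.86 to 1.12 with 1 array left out. The number with diets apart stayed between 6 and 8 in the alternatives over all slides and cannot change with the variance settings, weights or the replicate block. The contractile mean minus the basal mean (0.20) was 0.059 with a normexp background and quantile scaling and 0.098 with probes well above background on all 6 arrays. Over 209 values of single contractile genes, 206 were positive. The 3 exceptions were Smtn at -0.033 (normexp and the 75th percentile), -0.064 (array weights) and -0.12 (without CD replicate 1; 0.21 at most with another left out). With array weights 6 of the 10 genes passed in limma (adjusted p from 0.022 to 0.036), as did 5410 of the 23462 genes tested. Over the other settings of the fit none of the 10 passed 0.05, and at an adjusted p under 0.1 Mrvi1 passes (0.0914). Transcription regulators had a median of 0.091 with normexp and the 75th percentile, 0.092 with every probe its own feature and 0.13 with the slide block. Skeletal muscle markers had 0.074 with normexp and the 75th percentile. Relative to the median of all genes under normexp and the 75th percentile, the regulators lay at -0.18 and the skeletal muscle markers at -0.19. Causes were not tested. Whether the replicate numbers pair the samples cannot be told from these values. Correlations of same-numbered deviations were 0.33, -0.14 and 0.25, and those of differently numbered arrays ran from -0.38 to 0.23. Each number occurs once per diet, so the replicate block leaves each difference as it was (median 1.01) and does not decide this. Depth is signal over background: Lmod1 and the second Mrvi1 probe are limited by it.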
